A study of Mus musculus with 144 samples.

Results

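Growth hormone, insulin-like growth factor (IGF) and insulin signalling were followed in mouse liver through 10 genes, taken by symbol from the 51912 genes of the deposited count table: Igf1, Igfals, Igfbp1, Igfbp2, Igfbp4, Ghr, Socs2, Insr, Irs1 and Irs2. All 10 were in the table, and all 10 passed the filter on low counts in every fit of gene counts. Transcript ends were read by 3′ mRNA sequencing (QuantSeq, which sequences the stretch next to the poly(A) tail) in 4 series of 36 libraries. Every series had 6 libraries for every one of 6 times of day, written as zeitgeber time (ZT, the hour since lights came on: 2, 6, 10, 14, 18 or 22). The series were total RNA, nuclear RNA and polysomal RNA of wild-type liver, and total RNA of liver labelled Bmal1-/-. Bmal1 encodes a transcription factor at the core of the circadian clock. Per the labels, all animals were male C57BL/6J mice, fed ad libitum and kept on 12 h of light and 12 h of dark. The labels give no age, do not say which part of Bmal1 is altered or in which cells, and do not say whether the fractions came from the livers used for total RNA. Nothing in them says that libraries of a group are separate animals, so p-values measure the spread between these libraries.

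Growth hormone binds its receptor, encoded by Ghr, on hepatocytes and acts through the kinase JAK2 and the factor STAT5 to raise Igf1, the main source of circulating IGF-1, and Igfals, the acid-labile subunit that holds IGF-1 in a long-lived complex in blood. Socs2 is induced by the same pathway and damps it. Igfbp1, Igfbp2 and Igfbp4 encode proteins that bind IGFs and limit their access to receptors. Igfbp1 is known to be held down by insulin and to rise on fasting. Insulin acts through its receptor, Insr, and the docking proteins IRS1 and IRS2, and in liver it lowers Irs2 itself by shutting the FOXO1 factor out of the nucleus.

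The sum of gene counts lay between 5316601 and 9831142 for a wild-type total library, 1662449 and 6620128 for a nuclear one, 2578048 and 13068044 for a polysomal one and 4379549 and 14281894 for one labelled Bmal1-/-. No hepatocyte marker of 6 had a median under 1 CPM (a gene's counts per 1000000 gene counts of its library) in any series, and their summed level had a median of 68895 CPM for wild-type total libraries and 54525 CPM for those labelled Bmal1-/-. Arntl, the gene for BMAL1, stood at 6.73 CPM ± 5.40 (SD, n = 36) in wild type and at 11.5 CPM ± 2.98 in the total RNA libraries labelled Bmal1-/-. Its time-point means ran from 0.852 CPM at ZT10 to 12.6 CPM at ZT22 in wild type and from 9.16 to 13.1 CPM in the other series. These are counts of transcript ends, and a deletion upstream of them would not show, so they do not check the label. The wording "labelled Bmal1-/-" is kept for that reason. Xist, which is expressed from the inactive X chromosome of females, was above 100 CPM in 4 libraries of ZT22: wild-type total replicate 5, nuclear replicate 5, polysomal replicate 1 and Bmal1-/- replicate 6. The Y-linked gene Ddx3y was at or below 0.380 CPM in the first 3 of these and at 92.9 CPM in the last.

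Promoter sequence was read for 8 of the 10 genes, in 12 windows that run from 250 bases before an annotated start to 50 bases after it (RefSeq, GRCm38.p6). Insr had no window to search, nor had Socs2, which was higher in libraries labelled Bmal1-/-. Both strands were searched for 4 short motifs: the E-box CACGTG, to which clock factors such as BMAL1 bind, the FOXO motif GTAAACA, the insulin response core CAAAACA and the STAT motif TTCNNNGAA. The E-box was in 7.15% of all 32851 promoter windows of this table, the insulin response core in 6.28%, the STAT motif in 8.3% and the FOXO motif in 3.65%. Counted by gene, with a match in any window, the shares were 8.09%, 7.2%, 9.55% and 4.05% of 27025 genes in that order. The 5 windows below are shown because they hold such a match in the 2 insulin docking genes, in the 2 binding-protein genes that were higher in libraries labelled Bmal1-/-, and in Igfals. Igfals was 1 of the 2 genes whose daily rhythm was called different there, though not under every alternative (the other, Igfbp4, held no match). Matches are in capitals, each sequence is written 5′ to 3′ on the strand of its gene, and a match is a run of letters, not a measured binding site.
Irs2, chr8:11008880-11009179, minus strand: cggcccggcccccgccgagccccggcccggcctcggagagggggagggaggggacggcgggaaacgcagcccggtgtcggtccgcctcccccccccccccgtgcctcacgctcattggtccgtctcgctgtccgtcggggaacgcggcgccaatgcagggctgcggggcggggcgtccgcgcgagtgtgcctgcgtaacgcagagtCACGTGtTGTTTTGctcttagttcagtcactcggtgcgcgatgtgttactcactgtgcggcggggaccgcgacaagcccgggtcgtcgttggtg
Irs1, chr1:82291390-82291689, minus strand: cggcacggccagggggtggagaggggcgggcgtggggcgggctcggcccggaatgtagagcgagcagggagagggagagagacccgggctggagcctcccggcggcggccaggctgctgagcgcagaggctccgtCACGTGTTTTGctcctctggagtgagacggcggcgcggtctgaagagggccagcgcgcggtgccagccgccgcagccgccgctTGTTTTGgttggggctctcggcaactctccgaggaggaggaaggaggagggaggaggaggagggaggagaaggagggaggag
Igfbp1, chr11:7197537-7197836, plus strand: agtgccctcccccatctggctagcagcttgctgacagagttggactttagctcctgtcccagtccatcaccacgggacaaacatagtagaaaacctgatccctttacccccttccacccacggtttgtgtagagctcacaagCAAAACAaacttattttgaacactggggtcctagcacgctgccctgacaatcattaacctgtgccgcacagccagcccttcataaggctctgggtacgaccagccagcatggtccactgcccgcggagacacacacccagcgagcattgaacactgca
Igfbp2, chr1:72824230-72824529, plus strand: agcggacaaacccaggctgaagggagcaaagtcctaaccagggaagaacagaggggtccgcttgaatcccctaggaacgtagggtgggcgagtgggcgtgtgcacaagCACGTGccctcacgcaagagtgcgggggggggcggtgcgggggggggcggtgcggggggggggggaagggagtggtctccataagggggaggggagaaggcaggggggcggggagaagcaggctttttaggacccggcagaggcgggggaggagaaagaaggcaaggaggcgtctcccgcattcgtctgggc
Igfals, the second of 3 windows, chr17:24877981-24878280, plus strand: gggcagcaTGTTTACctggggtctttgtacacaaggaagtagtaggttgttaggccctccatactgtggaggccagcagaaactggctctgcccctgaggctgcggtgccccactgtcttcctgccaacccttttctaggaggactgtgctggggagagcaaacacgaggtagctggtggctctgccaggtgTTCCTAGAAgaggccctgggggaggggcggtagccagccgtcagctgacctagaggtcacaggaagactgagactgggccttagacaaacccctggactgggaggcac
Counted from the start, the Irs2 E-box begins at -44 and an insulin response core follows it at -37. In Irs1 the E-box begins at -115 and shares bases with an insulin response core that begins at -111, and a further core begins at -32. The Igfbp1 window holds an insulin response core at -108 and the Igfbp2 window an E-box at -142. In the Igfals window a FOXO motif begins at -242 and a STAT motif at -58, and the first Igfals window holds another STAT motif at -236. None of the 4 motifs was found in the windows of Igf1, Igfbp4 or Ghr, which says only that these letters are not in those windows.

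**Figure D1:**
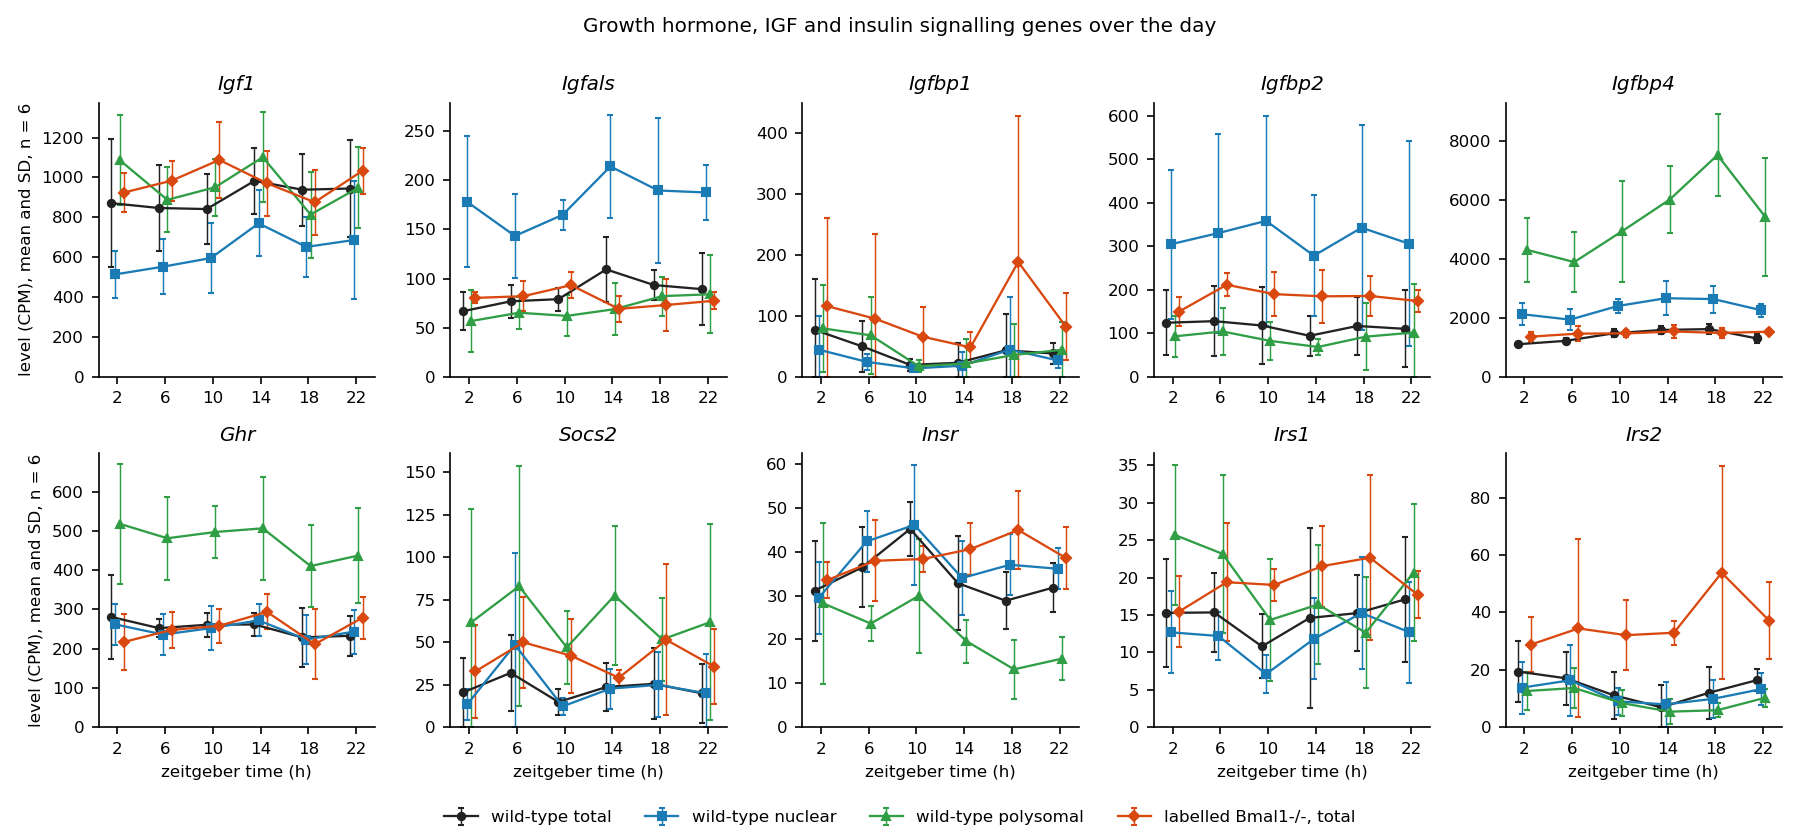
Level of each gene (CPM, y axis from 0) against zeitgeber time (h); points are means of 6 libraries, bars are 1 SD (cut at 0 where longer than the mean), and colours mark the 4 series. Irs2 of the series labelled Bmal1-/- lies above wild-type total RNA at 6 of 6 times, and polysomal Igfbp4 is highest at ZT18, at 7511 CPM.

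Within a series, libraries of the same time point differed widely for Igfbp1, Igfbp2, Socs2 and Irs2, and in wild type the difference followed the replicate number. In total RNA of wild type, the median of Igfbp2 was 54.9 CPM (36.3 to 133, n = 18) over replicates 1 to 3 and 170 CPM (87.9 to 280) over replicates 4 to 6. Socs2 had a median of 12.8 CPM (4.84 to 18.97) in the first set and 28.6 CPM (5.44 to 67.7) in the second. The medians of Irs2 were 7.89 CPM (2.85 to 18.6) and 18.4 CPM (3.02 to 37.5). Igfbp1 had medians of 23.1 CPM (2.82 to 53.4) and 32.9 CPM (1.58 to 244). The mean of these 4 genes was at least 2-fold higher in replicates 4 to 6, which was so for 4 of the 10 genes and for 0.844% of all 11964 genes tested in the series. None was 2-fold lower, against 1.19% of all genes. Nuclear RNA had the same order, with 4 of 10 genes at least 2-fold higher against 0.832% of all genes and none 2-fold lower against 0.519%.

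In polysomal RNA the order was turned around. The median of Igfbp2 was 114 CPM (58.2 to 327) over replicates 1 to 3 and 51.4 CPM (34.6 to 77.9) over replicates 4 to 6, and that of Socs2 was 79.0 CPM (9.73 to 203) and 38.1 CPM (13.9 to 72.2). Here 4 of the 10 genes were at least 2-fold lower in replicates 4 to 6, against 1.37% of all genes, and none 2-fold higher, against 1.88%. In the series labelled Bmal1-/- the medians of Igfbp2 were 183 and 171 CPM, those of Irs2 27.9 and 32.6 CPM and those of Socs2 31.4 and 34.97 CPM. Of the 10 genes, Igfbp1 alone differed 2-fold in that series (1 higher against 0.717% of all genes, none lower against 0.66%), with a mean of 60.7 CPM ± 82.9 (SD, n = 18) over replicates 1 to 3 and 138 CPM ± 158 over replicates 4 to 6. No label says what the replicate numbers stand for, so the level changes of the 10 genes labelled Bmal1-/- and in polysomes are also given within both sets. Nor do the labels say that a number stands for the same livers in each series, and the library of ZT22 with high Xist and almost no Ddx3y was replicate 5 in total and nuclear RNA but replicate 1 in polysomal RNA. A polysomal value within a set may therefore compare unlike sets of livers, which was not tested.

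**Figure D2:**
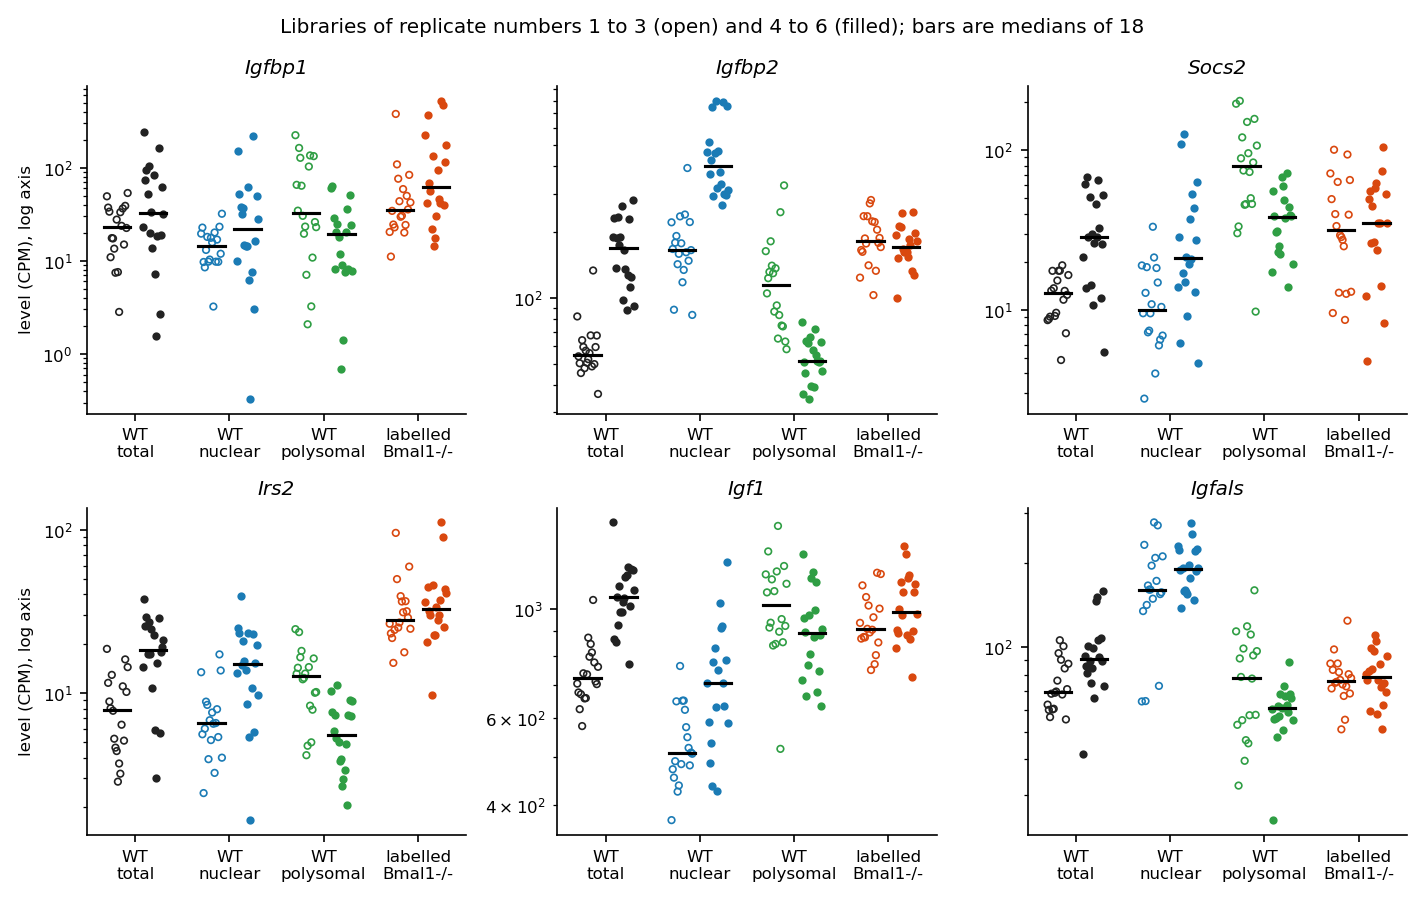
Level of 6 genes (CPM, log axis) in every library, by series on the x axis; open points are replicates 1 to 3, filled points replicates 4 to 6 and bars the medians of 18 libraries. Igfbp2, Socs2 and Irs2 are higher in replicates 4 to 6 of wild-type total and nuclear RNA, lower in those of polysomal RNA and alike in the series labelled Bmal1-/-.

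The comparison of livers labelled Bmal1-/- with wild type asked whether these signalling genes keep their level when the clock gene is altered. Irs2, Igfbp1, Socs2 and Igfbp2 were higher and Igfals was lower in total RNA labelled Bmal1-/-, by edgeR's quasi-likelihood test with Benjamini-Hochberg adjustment over all genes and a threshold of 0.05. Igf1, Igfbp4, Ghr, Insr and Irs1 did not pass. These 5 calls among 10 genes stand beside 44.2% of all 12082 genes tested (21.7% higher, 22.4% lower), so their share was near that of all genes. The median log2 change was 0.19 over the 10 genes and -7.5e-04 over all genes. In bulk RNA, a change in the number of cells of a type cannot be told apart from a change in RNA per cell.

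Irs2, the insulin receptor substrate that insulin represses in liver, had the largest rise of the 10. Its median level was 12.2 CPM in wild type, with a range of 2.85 to 37.5 CPM, and 30.6 CPM in libraries labelled Bmal1-/-, with a range of 9.67 to 111 CPM. The mean was higher at 6 of 6 times. All 6 libraries labelled Bmal1-/- lay above all 6 wild-type libraries at ZT14 and at ZT22, where this separation in either direction held for 3.15% and 4.13% of all genes. At ZT2, ZT6, ZT10 and ZT18, where it held for 3.26%, 5.64%, 9.35% and 7.26% of all genes, none of the 10 was apart. At ZT14 the wild-type median was 3.44 CPM, with replicate 4 apart from the others at 22.7 CPM, against a median of 32.2 CPM (27.7 to 39.0) in libraries labelled Bmal1-/-. The log2 change over the day was 1.36 (SE 0.20, adjusted p 4.33e-08), a 2.56-fold rise with a 95% interval from 1.96 to 3.34. It was 2.06 (adjusted p 4.58e-09) in replicates 1 to 3 and 0.84 (adjusted p 0.00528) in replicates 4 to 6, so its call held in both sets.

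Igfbp1, the binding protein that rises on fasting, had a median of 25.7 CPM (1.58 to 244) in wild type and 43.0 CPM (11.1 to 521) in libraries labelled Bmal1-/-. The ranges overlapped at all 6 times, although the mean was higher at each. Its log2 change was 1.17 (SE 0.35, adjusted p 0.00464). Within replicates 1 to 3 it was 1.07 (adjusted p 0.0147), and within replicates 4 to 6 it was 0.93 and no longer passed (adjusted p 0.16). The spread was wide in both series: at ZT18, Bmal1-/- libraries ran from 20.1 to 521 CPM around a median of 45.8 CPM.

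Igfbp2 and Socs2 were called over all libraries but in only 1 of the 2 sets of replicates. Igfbp2, which binds IGF-1 and IGF-2 in blood, had a median of 90.0 CPM (36.3 to 280) in wild type and 178 CPM (100.4 to 280) in libraries labelled Bmal1-/-. Its log2 change was 0.56 (SE 0.17, adjusted p 0.00489), which was 1.59 (adjusted p 1.57e-09) in replicates 1 to 3 and -0.08 (adjusted p 0.709) in replicates 4 to 6. Socs2, the inhibitor induced by growth hormone, had medians of 15.9 CPM (4.84 to 67.7) and 34.8 CPM (4.78 to 104). It changed by 0.73 (SE 0.25, adjusted p 0.0125), by 1.60 (adjusted p 2.21e-04) in replicates 1 to 3 and by 0.14 (adjusted p 0.785) in replicates 4 to 6. Levels in the libraries labelled Bmal1-/- were thus near those of wild-type replicates 4 to 6 and above those of wild-type replicates 1 to 3.

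Igf1, the hormone itself, had a median of 863 CPM (578 to 1496) in wild type and 948 CPM (726 to 1339) in libraries labelled Bmal1-/-. Its log2 change was 0.01 (SE 0.07, adjusted p 0.952), with a 95% interval from 0.912-fold to 1.11-fold. The 2 sets of replicates went opposite ways and each passed the threshold, at 0.28 (adjusted p 9.31e-04) and -0.21 (adjusted p 0.0426). Igfals, its partner in the blood complex, had medians of 84.4 CPM (41.9 to 159) and 76.8 CPM (51.1 to 124.5) and changed by -0.21 (SE 0.08, adjusted p 0.0232). The change was 0.01 in replicates 1 to 3 and -0.40 (adjusted p 0.00594) in replicates 4 to 6. Without the libraries with Xist above 100 CPM it was -0.17 and did not pass (adjusted p 0.0635), while Irs2 (1.37), Igfbp1 (1.15), Socs2 (0.83) and Igfbp2 (0.65) still passed and Irs1 (0.33, adjusted p 0.0435) did as well.

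Ghr, the growth hormone receptor, had a median of 250 CPM (119 to 495) in wild type and 260 CPM (80.4 to 347) in libraries labelled Bmal1-/-, with a log2 change of -0.12 (SE 0.09, adjusted p 0.252). Insr, the insulin receptor, had medians of 35.6 CPM (15.2 to 54.4) and 37.5 CPM (27.0 to 56.1) and changed by 0.09 (SE 0.07, adjusted p 0.351). Within replicates 4 to 6 both passed, Ghr at -0.36 (adjusted p 0.0289) and Insr at 0.30 (adjusted p 0.0256). Within replicates 1 to 3 neither did, at 0.091 (adjusted p 0.381) and -0.089 (adjusted p 0.325). Irs1, the other insulin receptor substrate, had medians of 13.1 CPM (6.20 to 38.6) and 18.3 CPM (6.49 to 36.2). It changed by 0.29 (SE 0.13, adjusted p 0.0692), by 0.85 (adjusted p 1.12e-05) in replicates 1 to 3 and by -0.15 (adjusted p 0.544) in replicates 4 to 6. The ranges of both series overlapped at every time for these 3 genes. Igfbp4, the most abundant binding-protein transcript counted here, changed by 3.4e-03 (SE 0.04, adjusted p 0.96), by 0.14 (adjusted p 0.0797) in replicates 1 to 3 and by -0.13 (adjusted p 0.129) in replicates 4 to 6.

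Markers of other liver cells were compared beside these changes. The summed level of 5 cholangiocyte markers lay between 16.2 and 66.6 CPM in wild type and between 45.8 and 136 CPM in libraries labelled Bmal1-/-, and 3 of the 5 had a median under 1 CPM in each. The 7 stellate-cell markers summed to 219 to 380 CPM and 313 to 515 CPM. Of the markers that could be tested, 2 of 2 for cholangiocytes were higher, and of 6 for stellate cells 3 were higher and 1 lower. For Kupffer cells 6 of 7 were lower, for red blood cells 4 of 5, for adipocytes 2 of 3 and for lymphocytes 2 of 2. Of 7 markers of sinusoidal endothelium 1 was higher and 3 lower, and of 6 hepatocyte markers 2 were higher and 2 lower. These counts stand beside 21.7% of all genes higher and 22.4% lower. Their part in the changes of the 10 genes was not tested.

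**Figure D3:**
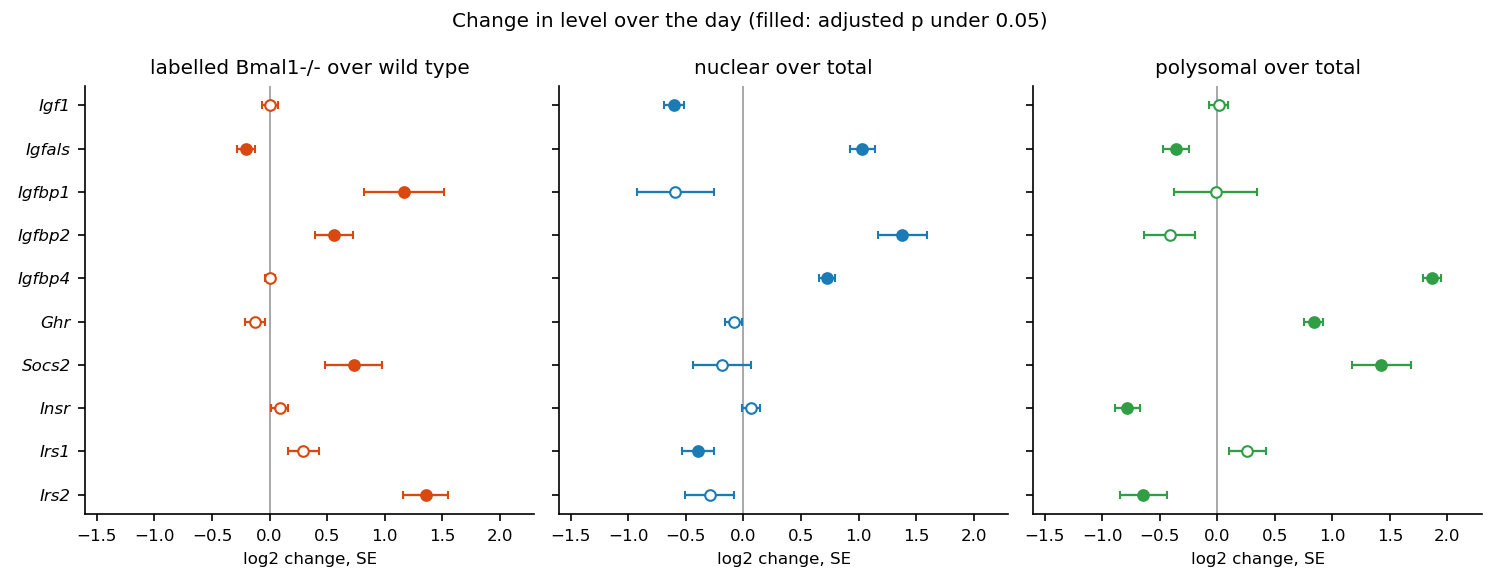
Log2 change of each gene (x axis, bars are 1 SE) in the series labelled Bmal1-/-, in nuclear RNA and in polysomal RNA, each over wild-type total RNA; filled points passed an adjusted p of 0.05 in edgeR's test. Irs2 has the largest change on the left (1.36), Igfbp2 in the middle (1.38) and Igfbp4 on the right (1.86).

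A 24 h cosine with its sine was fitted to every series to test for a daily rhythm. In wild-type total RNA 2 of the 10 genes, Igfbp4 and Igfals, passed the threshold, beside 18.9% of all 11964 genes. Igfbp4, which binds IGFs in and outside the liver, had a median of 1080 CPM (1021 to 1176) at ZT2 and 1585 CPM (1403 to 1895) at ZT18, and the ranges of these 2 times did not overlap. Its fitted peak was at ZT15.4 with a peak-to-trough log2 difference of 0.57, a ratio of 1.49 (edgeR adjusted p 2.84e-05), and it passed in both sets of replicates. Igfals had a median of 61.3 CPM (41.9 to 93.5) at ZT2 and 100.7 CPM (65.8 to 152) at ZT14, with overlapping ranges. Its fitted peak was at ZT16.2 with a ratio of 1.51 (edgeR adjusted p 0.0341). It passed in replicates 1 to 3 (adjusted p 0.00215) and not in replicates 4 to 6 (adjusted p 0.406), nor with time as a factor (0.167).

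Irs2 and Igfbp1 had wider fitted swings than these in wild-type total RNA, without passing the threshold. Irs2 had medians of 16.4 CPM (8.83 to 37.5) at ZT2, 7.95 CPM (4.39 to 24.6) at ZT10 and 3.44 CPM (2.85 to 22.7) at ZT14. Its fitted peak was at ZT1.72, with a ratio of 2.59 (edgeR adjusted p 0.0602). In replicates 1 to 3 the peak-to-trough log2 difference was 2.06 and passed (adjusted p 5.82e-05), and in replicates 4 to 6 it was 1.13 and did not (adjusted p 0.297). Igfbp1 had medians of 43.2 CPM at ZT2 and 7.42 CPM at ZT14, a fitted peak at ZT0.701 and a ratio of 3.36 (edgeR adjusted p 0.149). Replicate 5 stood apart from the others for Igfbp1 at ZT2, at 244 CPM, and at ZT18, at 163 CPM. The other genes had fitted ratios from 1.098 for Socs2 to 1.44 for Irs1.

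In the series labelled Bmal1-/- none of the 10 genes passed a test of rhythm, beside 0.00825% of all genes (1 of 12126), and none of the 10 had an unadjusted p under 0.05. The medians of Igfbp4 there were 1436 CPM at ZT2 and 1453 CPM at ZT18, and its fitted ratio was 1.04. The difference in rhythm itself was tested as an interaction of series and time. It passed for Igfals (edgeR adjusted p 0.0168) and Igfbp4 (edgeR adjusted p 0.0221), beside 5.11% of all genes. For Igfals the medians labelled Bmal1-/- were 92.5 CPM at ZT10 and 70.6 CPM at ZT14, so that the highest wild-type time mean fell on the lowest time mean of that series. For Irs2, whose time means labelled Bmal1-/- ran from 28.8 to 53.8 CPM, the interaction did not pass (edgeR adjusted p 0.145). Neither interaction passed with 6 time points as a factor (adjusted p 0.0583 for Igfals and 0.121 for Igfbp4) or with all 4 series in 1 fit (0.195 and 0.426), and that of Igfbp4 passed in neither set of replicates alone.

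In nuclear RNA none of the 10 genes passed a test of rhythm (edgeR, 1 of 10 with an unadjusted p under 0.05), beside 5.99% of all genes. In polysomal RNA Igfbp4 and Insr passed, beside 7.9% of all genes. Polysomal Igfbp4 had a median of 4077 CPM (2388 to 5285) at ZT6 and 7472 CPM (5500 to 9827) at ZT18, which did not overlap. Its peak was fitted at ZT17.1 with a ratio of 2.13 (edgeR adjusted p 4.53e-04), and it missed the threshold in replicates 1 to 3 alone (adjusted p 0.0849). Polysomal Insr had a median of 24.02 CPM (17.2 to 28.4) at ZT6 and 12.5 CPM (4.43 to 21.2) at ZT18, with a fitted peak at ZT7.21 and a ratio of 1.93 (edgeR adjusted p 0.0497). It missed the threshold without polysomal replicate 1 (adjusted p 0.0859), within replicates 1 to 3 (0.35) and within replicates 4 to 6 (0.253). By edgeR's interaction test, no tested gene passed for a difference in rhythm between polysomal or nuclear RNA and total RNA (681 and 244 genes had an unadjusted p under 0.05). Of the 10, 1 had an unadjusted p under 0.05, polysomal Igfbp4 at 0.00893. On simulated counts this test called 21.2% of 2-fold (peak-to-trough) differences in rhythm in polysomal RNA and 19.4% in nuclear RNA. Every gene was simulated with the same dispersion, and libraries without shared deviations, so these shares need not hold for the 10 genes. A missed call therefore does not show the same rhythm.

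Nuclear RNA, purified through a sucrose cushion, was compared with total RNA to place each transcript between its synthesis and its store in the cytoplasm. In the nucleus Igfbp2, Igfals and Igfbp4 were higher and Igf1 and Irs1 lower relative to all RNA of the fraction. These were 5 calls among 10 genes, beside 83.8% of all 11864 genes (41.6% higher, 42.1% lower). Igfbp2 had a nuclear median of 279 CPM (83.5 to 797) and a log2 change of 1.38 (SE 0.21, adjusted p 4.13e-08). Igfals had a nuclear median of 175 CPM (64.3 to 278) against 84.4 CPM in total RNA, and a change of 1.03 (SE 0.11, adjusted p 2.39e-14). The ranges of nuclear and total Igfals were apart at 1 of 6 times and those of Igfbp2 at none.

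Igfbp4 changed by 0.73 (SE 0.07, adjusted p 2.22e-15), from a median of 1357 CPM (1021 to 1895) in total to 2318 CPM (1466 to 3260) in nuclear RNA. All 6 nuclear libraries lay above all 6 total libraries at 5 of 6 times, with the exception of ZT14. Of all genes, 28.9%, 37%, 32.7%, 27.5%, 34.2% and 27.8% were apart in either direction at the 6 times in order. Igf1 had a nuclear median of 587 CPM (372 to 1245) and changed by -0.61 (SE 0.09, adjusted p 1.77e-09), with a lower mean at 6 of 6 times. These 4 calls held in both sets of replicates. Irs1 changed by -0.40 (SE 0.14, adjusted p 0.00721), by -0.05 in replicates 1 to 3 and by -0.61 (adjusted p 9.99e-04) in replicates 4 to 6. Of the cell markers tested in nuclear RNA, 2 of 7 for Kupffer cells were higher and 4 lower, and 3 and 4 of 7 for sinusoidal endothelium. For stellate cells it was 4 and 3 of 7, and for red blood cells 0 and 2 of 5. These counts stand beside 41.6% of all genes higher and 42.1% lower. In that order, the summed markers had medians of 256, 287, 302 and 2585 CPM in total RNA and 217, 288, 167 and 1985 CPM in nuclear RNA. Their part in the changes was not tested. Summed Malat1 and Neat1, RNAs kept in the nucleus, had a median of 2726 CPM in nuclear RNA, 1964 CPM in total RNA and 58.7 CPM in polysomal RNA.

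Polysomal RNA, taken from a sucrose gradient after cycloheximide, was compared with total RNA to ask which transcripts are loaded on ribosomes. Igfbp4, Socs2 and Ghr were higher there and Insr, Irs2 and Igfals lower, 6 calls beside 76.1% of all 11556 genes (38.4% higher, 37.6% lower). Igfbp4 had a polysomal median of 5047 CPM (2320 to 9827), changed by 1.86 (SE 0.08, adjusted p 2.46e-33) and was 3.64-fold higher. All 6 polysomal libraries lay above all 6 total libraries at 6 of 6 times for Igfbp4 and at 3 of 6 times for Ghr, and all 6 lay below for Insr at ZT18. Of all genes, 18.4%, 28%, 23.7%, 24.1%, 26.4% and 19.4% were apart in either direction at the 6 times in order. Ghr had a polysomal median of 478 CPM (222 to 753) and changed by 0.84 (SE 0.08, adjusted p 2.81e-14). Insr had a median of 20.2 CPM (4.43 to 64.7) and changed by -0.78 (SE 0.11, adjusted p 1.69e-09). For these 3 genes both sets of replicates gave the same direction and a call, at 1.76 and 1.91 for Igfbp4, 0.98 and 0.67 for Ghr and -0.75 and -0.86 for Insr. A number is not stated to mark the same livers in both series, so a set may compare unlike livers.

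Markers of red blood cells were higher in polysomal RNA for 4 of 5, with a median log2 change of 1.76, and summed to 2157 to 20820 CPM against 546 to 13134 CPM in total RNA. Of 7 Kupffer cell markers 2 were higher and 4 lower, and 5 of 7 for sinusoidal endothelium and 4 of 6 for stellate cells were lower. These counts stand beside 38.4% of all genes higher and 37.6% lower in polysomal RNA. The 5 pancreas acinar markers summed to a median of 0.449 CPM in polysomal libraries but reached 2297 CPM, and to at most 2.89 CPM in total RNA. Their part in the changes of the 10 genes was not tested.

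For the other genes the polysomal comparison turned on the set of replicates. Irs2 changed by -0.65 over all libraries (SE 0.20, adjusted p 0.00357), by 0.63 in replicates 1 to 3 (adjusted p 0.0012) and by -1.87 in replicates 4 to 6 (adjusted p 2.80e-09). Igfbp2 changed by -0.42 over all (SE 0.22, adjusted p 0.0813), by 1.06 (adjusted p 3.77e-05) in the first set and by -1.82 (adjusted p 1.46e-12) in the second. Without polysomal replicate 1 it was -0.79 and passed (adjusted p 6.67e-04). Igfbp1 went from 1.35 (adjusted p 0.0136) to -1.65 (adjusted p 0.00352), and over all libraries it stood at -0.01 (SE 0.36). Igf1 and Irs1 also passed in opposite directions, at 0.46 and -0.43 for Igf1 and 0.98 and -0.46 for Irs1. Socs2 changed by 1.43 over all (SE 0.25, adjusted p 1.04e-06), by 2.78 in replicates 1 to 3 and by 0.08 in replicates 4 to 6 (adjusted p 0.817). Igfals changed by -0.36 over all (SE 0.11, adjusted p 0.00251), by 0.08 (adjusted p 0.649) and by -0.85 (adjusted p 5.14e-07) in the 2 sets, and by -0.60 (adjusted p 9.96e-08) without polysomal replicate 1. These opposite values accompany the opposite order of replicate sets in polysomal and total RNA. Since the numbers are not stated to mark the same livers in both series, they are not changes within like livers.

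Where transcripts end was read from the authors' filtered list of polyadenylation sites, 36 of which lay in the 10 genes: 9 in Igf1, 7 in Ghr, 4 in Igfbp4, 3 each in Socs2, Insr and Irs1, 2 each in Igfals, Igfbp2 and Irs2, and 1 in Igfbp1. Sites are numbered from the 5′ end of the gene, positions are those of the authors' list (mm10), and usage is the share of a gene's site counts at a site. In each gene except Socs2 the most 3′ site ended at most 16 bases past the RefSeq gene end. In Socs2 (chromosome 10, 95383903 to 95417321, minus strand) it lay 27600 bases before that end. The test in edgeR took sites that made up 5% or more of a gene and used the gene total as an offset.

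Igf1 lies on chromosome 10, 87858265 to 87937047, plus strand, and 3 of its sites carried most counts. Site 2, at 87930679 to 87931026, lay 6033 bases before the last site, and took 50.6% ± 7.7 (SD, n = 36) of the site counts in total RNA of wild type. Site 6, at 87934153 to 87934379, held 32.3% ± 5.6, and site 9, at 87936897 to 87937059, held 9.2% ± 1.8. In polysomal RNA site 2 fell to 21.4% ± 7.2 (log2 change of usage -1.25, SE 0.08, adjusted p 1.60e-20) and site 9 rose to 29.3% ± 8.4 (1.67, SE 0.09, adjusted p 6.06e-26). In nuclear RNA site 2 stood at 29.2% ± 7.6 (-0.80, adjusted p 3.05e-15) and site 6 at 52.9% ± 10.2 (0.71, adjusted p 9.84e-16), while site 9 did not pass (8.6% ± 2.2, adjusted p 0.231). With sites outside the filtered list counted in the gene total, nuclear site 9 was lower (-0.33, adjusted p 6.70e-04). In polysomal RNA site 6 rose too, to 39.1% ± 8.9 (0.27, SE 0.07, adjusted p 2.79e-04), but not within replicates 1 to 3. Transcripts that ended at the last site thus took a larger share in polysomes than in total RNA. Those that ended at site 6 took a larger share in both fractions, and more so in the nucleus. In the series labelled Bmal1-/- none of the 3 sites passed, with site 2 at 49.0% ± 8.1 (edgeR adjusted p 0.706).

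Irs2 (chromosome 8, 10984681 to 11008929, minus strand) had 2 sites, 2280 bases apart, whose order was inverted in the nucleus. The upstream site, at 10986959 to 10987015, took 23.3% ± 6.2 (SD, n = 36) in total and 71.2% ± 14.04 in nuclear RNA of wild type, with a log2 change of 1.54 (SE 0.08, adjusted p 5.03e-26). The last site, at 10984679 to 10984817, held 76.7% ± 6.2 and 28.8% ± 14.04, a change of -1.41 (SE 0.10, adjusted p 6.19e-21). These shares rest on a mean of 85.4 site counts per library in total and 37.2 in nuclear RNA. In polysomal RNA the upstream site held 31.8% ± 19.3 (0.36, SE 0.16, adjusted p 0.0416), which did not pass without polysomal replicate 1 (0.09, adjusted p 0.965) or within either set. In the series labelled Bmal1-/-, where Irs2 was higher, the upstream site held 18.6% ± 5.2 (-0.36, SE 0.09, adjusted p 0.00645) and the last site 81.4% ± 5.2 (0.10, SE 0.03, adjusted p 0.0361). With sites outside the filtered list in the gene total, the first of these changes was -0.42 (adjusted p 0.00141) and the second did not pass (0.047, adjusted p 0.551). Within replicates 1 to 3 the upstream change was -0.25 and did not pass (adjusted p 0.464).

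Ghr (chromosome 15, 3317755 to 3583352, minus strand) used site 7, at 3317750 to 3317949, for 58.6% ± 8.8 (SD, n = 36) of wild-type total counts and site 5, at 3327523 to 3327619, for 27.4% ± 7.7. In polysomal RNA site 7 held 85.8% ± 3.2 (0.55, SE 0.04, adjusted p 2.35e-18) and site 5 held 7.9% ± 2.6 (-1.80, SE 0.10, adjusted p 1.26e-23). In the series labelled Bmal1-/- site 7 held 52.7% ± 5.3 (-0.15, SE 0.05, adjusted p 0.0355), and this did not pass within replicates 4 to 6 (-0.11, adjusted p 0.446), nor with sites outside the filtered list in the gene total (-0.060, adjusted p 0.753). Site 5 lies 9773 bases before the last site. Transcripts that ended at the last site thus took a larger share in polysomes than in total RNA, also with those further sites counted (1.82, adjusted p 3.87e-34).

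In Socs2 the first site, at 95412385 to 95412471, took 19.2% ± 5.6 (SD, n = 36) in total and 4.7% ± 4.3 in polysomal RNA (-2.11, SE 0.22, adjusted p 6.72e-13). Its second site, at 95412029 to 95412108, went from 41.6% ± 6.2 to 61.9% ± 13.2 in polysomes and to 57.9% ± 14.7 in the nucleus (0.57 and 0.45, adjusted p 1.87e-11 and 1.71e-08). Among its filtered sites, Insr had 19.97% ± 4.8 of counts at the second, at 3152276 to 3152342 on chromosome 8 and 1356 bases before the last one, in total RNA, 33.1% ± 9.2 in nuclear and 39.5% ± 12.7 in polysomal RNA (0.71 and 0.95, adjusted p 4.11e-10 and 4.00e-11). Over all sites of both lists the same site held 13.5% ± 3.3 in total, 8.5% ± 4.3 in nuclear and 30.4% ± 10.4 in polysomal RNA, so that the nuclear change turned (-0.74, adjusted p 5.45e-07) and the polysomal one did not (1.13, adjusted p 7.70e-14). Irs1 had 3 filtered sites within 201 bases, and the last held 33.9% ± 13.8 of their counts in total, 48.1% ± 16.6 in nuclear and 54.6% ± 16.9 in polysomal RNA. Over both lists it held 24.3% ± 9.1, 11.3% ± 6.3 and 50.2% ± 14.3, and here too the nuclear change turned, from 0.49 to -1.17 (adjusted p 4.88e-11). Igfbp4 kept most counts at its last site, with 94.3% ± 1.4 in total RNA, while site 2, 4339 bases upstream, held 4.5% ± 1.3 in total and 11.2% ± 4.6 in nuclear RNA (1.31, SE 0.11, adjusted p 1.14e-16). In polysomal RNA the same site 2 held 8.98% ± 5.4 (0.99, SE 0.15, adjusted p 4.69e-08). Igfals and Igfbp2 ended at their last site in 91.3% and 94.2% of wild-type total counts.

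Over all tested sites of these genes, 3 of 21 passed in the comparison with livers labelled Bmal1-/-, 1 with a larger and 2 with a smaller share, beside 8.98% of all 13581 sites (4.83% larger, 4.15% smaller). In nuclear RNA 19 of 20 passed, 9 larger and 10 smaller, beside 78.7% of 11985 sites (35.6% larger, 43.1% smaller). With the sites of both lists in the gene total, 5 nuclear sites were larger and 15 smaller, beside 27.3% and 54.1% of all sites. In polysomal RNA 18 of 22 passed, 9 in each direction, beside 70.5% of 12697 sites (33.3% larger, 37.2% smaller). No site of the 10 genes had a daily rhythm of usage in wild-type total RNA by edgeR (0 of 20, none with an unadjusted p under 0.05), beside 0.354% of 13287 sites. The fitted ratio of the highest to the lowest usage over the day ran from 1.02 to 1.55 over these 20 sites.

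**Figure D4:**
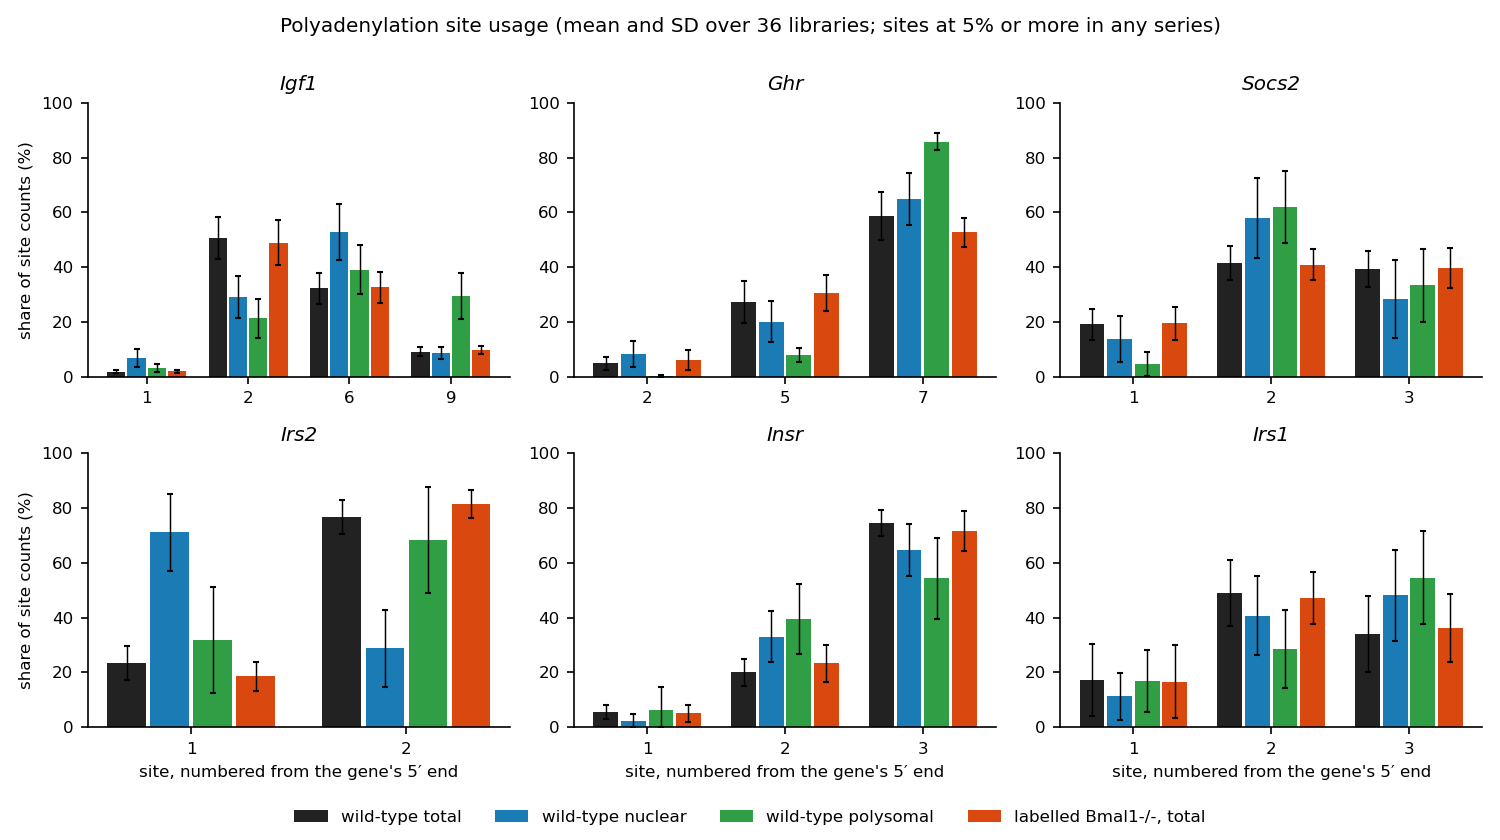
Share of a gene's counts at sites of the filtered list (%, y axis from 0 to 100) at each site with at least 5% in any series, numbered from the 5′ end, for 6 genes; bars are means and lines 1 SD of 36 libraries, in the 4 series. The upstream Irs2 site has the highest share in nuclear RNA (71.2%) and the last Igf1 and Ghr sites in polysomal RNA (29.3% and 85.8%).

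Sites outside the filtered list were counted too. In Ghr, 173 further sites held 61.4% ± 9.8 (SD, n = 36) of all site counts in total RNA of wild type, 82.5% ± 9.4 in nuclear RNA and 8.6% ± 4.2 in polysomal RNA. In Irs1, 8 further sites held 27.0% ± 10.2, 76.2% ± 9.5 and 7.2% ± 7.0 in the same order, and in Insr 20 further sites held 31.9% ± 6.2, 74.7% ± 9.2 and 22.6% ± 9.1. Usage values above leave these sites out unless both lists are named, and that second gene total was chosen after seeing the data. Summed over both lists, nuclear site counts of Ghr came to 641% of its gene count, so most of these reads were not in the gene counts. Igfals had no further site, and in Igfbp1, Igfbp2 and Igfbp4 such sites held at most 4.0% on average in any series.

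Other genes of these pathways were described by lists. Among 17 tested genes of the growth hormone, JAK and STAT pathway, 4 were higher and 4 lower in total RNA labelled Bmal1-/-, beside 44.2% of all genes called, with a median log2 change of -0.01. Prlr, the prolactin receptor, rose from 100.4 CPM ± 60.2 (SD, n = 36) to 217 CPM ± 36.6 (1.05, SE 0.10, adjusted p 2.06e-13). Stat3 (0.31, SE 0.07, adjusted p 9.92e-05) and Stat5b (0.28, SE 0.07, adjusted p 9.48e-04), which carry cytokine and growth hormone signals to the nucleus, rose as well. In the IGF list, 6 of 15 genes could be tested, 1 was higher and 1 lower, again beside 44.2% of all genes. Igfbp5, another IGF-binding protein, changed by -0.71 (SE 0.15, adjusted p 4.40e-05) from 6.17 to 4.10 CPM, and Igf2bp2, which binds mRNAs including that of Igf2, by 1.30 (SE 0.20, adjusted p 1.26e-07).

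In the list of insulin, PI3K, AKT and FOXO signalling, 41 genes were tested, of which 6 were higher and 12 lower in total RNA labelled Bmal1-/-, a share near the 44.2% of all genes. Foxo3, a transcription factor that insulin switches off, changed by -0.68 (SE 0.06, adjusted p 8.04e-16), and Trib3, an AKT inhibitor, by -1.604 (SE 0.25, adjusted p 1.89e-07). Ceacam1, which takes part in insulin clearance, rose by 0.50 (SE 0.07, adjusted p 1.06e-08). In wild-type total RNA 12 of the 41 had a daily rhythm, beside 18.9% of all genes, led by Trib3 with a peak at ZT7.30, Pik3cb at ZT11.6 and Pik3r1 at ZT14.4. Of 11 tested liver transcripts known to answer insulin or FOXO1, 4 were higher and 4 lower, beside 21.7% and 22.4% of all genes. Fasn, fatty acid synthase, changed by -1.47 (SE 0.23, adjusted p 3.24e-07) and Pnpla3 by -3.75 (SE 0.51, adjusted p 1.04e-08), while Ppargc1a, a coactivator of glucose production, rose by 0.52 (SE 0.16, adjusted p 0.00624). In replicates 4 to 6 alone, 2 of 10 tested transcripts of this list passed, against 7 of 11 in replicates 1 to 3, beside 33.5% and 38.8% of all genes.

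Genes that follow the sex-specific pattern of growth hormone release in rodents were listed as well. Of 19 tested male-biased genes, 6 were higher and 5 lower in total RNA labelled Bmal1-/-, with a median log2 change of 1.7e-03, beside 21.7% and 22.4% of all genes. Within replicates 1 to 3 the split was 12 higher and 2 lower, and within replicates 4 to 6 it was 2 higher and 8 lower, beside 38.8% and 33.5% of all genes called in either direction. Serpina12 rose by 1.78 (SE 0.27, adjusted p 1.01e-07) from 66.8 to 242 CPM, and Selenbp2 changed by -1.23 (SE 0.25, adjusted p 3.78e-05). Of 21 tested female-biased genes, 6 were higher and 10 lower, beside 21.7% and 22.4% of all genes, with a median log2 change of -0.49. Within replicates 1 to 3, 5 of 16 were higher and 9 lower, beside 19.4% and 19.5% of all genes. Within replicates 4 to 6, 5 of 25 were higher and 2 lower, beside 17% and 16.5%. The balance thus differed between the sets, in which different numbers of listed genes passed the filter on low counts. Without the libraries with Xist above 100 CPM, 17 were tested, 6 higher and 7 lower, beside 22.6% and 21.1%. Some of the 21 thus passed that filter only with those libraries. In wild-type total RNA 13 of 20 had a rhythm, beside 18.9% of all genes, and without the Xist library 6 of 15, beside 17.7%.

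The genes most like each member were sought over the 12 group means of total RNA (6 times in wild type and in the series labelled Bmal1-/-), by Pearson's r of log2 levels. Igfbp4 was most like Per2, a clock gene (r = 0.96), and Ctcflos (0.92). Irs2 was most like Dcps (r = 0.97) and Evi5 (r = 0.97), and Insr was most like Trpm7 (r = 0.96) and Vps13d (0.95). For Igf1 these were BC025446 (0.90) and Pwp2 (0.87), and for Igfals Gm9797 (0.85) and Foxa3 (0.83). Igfbp1 had AU022252 (0.96) and Glt28d2 (0.92), and Igfbp2 had 1810037I17Rik (0.97) and Rnaset2a (0.95). The pairs were Arhgap17 (0.94) and Egfr (0.87) for Ghr, Cyp4a31 (0.93) and Rpl28-ps3 (0.92) for Socs2, and Tmem87a (0.91) and Diaph1 (0.90) for Irs1. Among the members, Irs2 and Igfbp2 were the most alike pair (r = 0.92), followed by Irs2 and Igfbp1 (r = 0.86). These 12 points share the difference between the 2 series, and r is given as a description.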

How the data were processed

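The authors deposited raw gene counts and raw counts per polyadenylation site for 144 libraries, with a full and a filtered list of sites. The submitters' processing notes name STAR 2.4.2a, edgeR and HOMER and the builds mm10 and GRCm38.p5, with no roles. The members and gene lists were chosen with earlier results of these data known. Gene counts were tested with edgeR 4.0.16 (R 4.3.3; quasi-likelihood, TMM scaling, mean of at least 10 counts, Benjamini-Hochberg over all genes, threshold 0.05), on the mean of 6 time-point means for levels and a 24 h cosine and sine for rhythm. Of 29199 filtered sites, 26916 were placed in 9176 genes, up to 1000 bases past the gene end. Usage was tested with the log of the gene's site total plus 0.5 as offset, for sites with at least 5% of a gene that had a mean of at least 50 counts. Strands of Socs2 and Insr were taken from site counts. All 10 genes are named, and at most 3 per list by smallest p. A listed gene that this rule names is not reported here. Within groups, 0 of 360 pairs of libraries were identical, and the closest pair differed by a chi-square of 4.45 per degree of freedom. Alternatives included DESeq2 1.42.0, other scaling and filters, replicate sets, the replicate number as a block and single libraries left out. A gene total over both site lists was added after the data were seen. The tests were also run on simulated data.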

Additional observations from a re-analysis of the deposited data

Results flagged for a closer look

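In 38 of 240 groups of 6 libraries, 1 library stood apart from the other 5 by Dixon's criterion. In 34 it was the highest library and in 4 the lowest, and Igfbp1 had 10 of them and Irs2 6. The criterion flags about 1 in 20 groups of normally distributed values. It was applied to CPM without a log scale, and genes share libraries, so 38 of 240 cannot be set against that rate. Values are CPM and no cause was tested.

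For Igfbp1, the insulin-repressed binding protein, replicate 5 stood apart in wild-type total RNA at ZT2 (244) and ZT18 (163) and in nuclear RNA at ZT2 (151) and ZT18 (219.8), and nuclear replicate 4 at ZT14 (62.1). Polysomal replicate 1 stood apart at ZT2 (223), ZT18 (135) and ZT22 (133), polysomal replicate 3 at ZT14 (103) and Bmal1-/- replicate 3 at ZT6 (377). Irs2 stood apart in wild-type total replicate 4 at ZT14 (22.7) and in 5 of the same libraries as Igfbp1: nuclear replicate 4 at ZT14 (23.3) and replicate 5 at ZT18 (23.0), polysomal replicate 3 at ZT14 (14.4) and replicate 1 at ZT22 (16.2), and Bmal1-/- replicate 3 at ZT6 (95.3).

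Igfbp2 was high in wild-type total replicate 5 (279.9), nuclear replicate 5 (755) and polysomal replicate 1 (327) at ZT22, 3 of the 4 libraries with Xist above 100 CPM, and in polysomal replicate 1 at ZT18 (247). Igfals stood apart in wild-type total replicate 5 at ZT22 (159), nuclear replicate 3 at ZT10 (195), polysomal replicate 1 at ZT14 (119) and Bmal1-/- replicate 3 at ZT18 (124.5). Socs2 stood apart in wild-type total replicate 5 at ZT2 (60.9) and ZT10 (29.7) and in polysomal replicate 1 at ZT2 (195).

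At ZT2, wild-type total replicate 4 was high for both Igf1 (1496) and Ghr (495), and Ghr was high in replicate 4 at ZT6 too (299). Igf1 was high in Bmal1-/- replicate 3 at ZT2 (1114), Igfbp4 in wild-type total replicate 5 at ZT14 (1822), Insr in polysomal replicate 3 at ZT2 (64.7) and Irs1 in wild-type total replicate 4 at ZT14 (38.6). The low libraries were nuclear replicate 1 (1574) and Bmal1-/- replicate 3 (1152) at ZT14 for Igfbp4, Bmal1-/- replicate 1 at ZT14 for Ghr (208) and nuclear replicate 3 at ZT10 for Irs1 (2.09).

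The daily rhythm of Igfals and of Igfbp4 was called different between wild-type total RNA and total RNA labelled Bmal1-/- (edgeR interaction, adjusted p 0.0168 and 0.0221). Neither call held with 6 time points as a factor or with all 4 series in 1 fit. Sites outside the authors' filtered list held 82.5% of nuclear site counts in Ghr, 76.2% in Irs1 and 74.7% in Insr.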

How the results depend on the processing

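Of 183 results for single genes and sites, 124 were the same under every alternative that tested them. Another 31 turned direction under at least 1, and 28 changed only their call. For levels and site usage, the same means the same direction and side of the threshold. For rhythms and differences in rhythm it means the same side alone, since peak times were not compared. The causes were not tested beyond what each alternative leaves out.

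Restricting to replicates 1 to 3 turned the log2 change labelled Bmal1-/- to 0.013 for Igfals, 0.091 for Ghr and -0.089 for Insr, the nuclear change to 0.00041 for Ghr and -0.055 for Insr, and the polysomal change to 0.079 for Igfals, 1.35 for Igfbp1, 1.06 for Igfbp2 and 0.63 for Irs2. Usage labelled Bmal1-/- turned to -0.17 and 0.50 at Irs1 sites 3 and 1, -0.092 at Igf1 site 9, 0.0093 at Socs2 site 2 and -0.014 at Socs2 site 1, and polysomal usage to -0.17 at Igfbp2 site 1 and -0.00070 at Igf1 site 6. Restricting to replicates 4 to 6 turned the change labelled Bmal1-/- to -0.21 for Igf1, -0.077 for Igfbp2, -0.13 for Igfbp4 and -0.15 for Irs1, and the polysomal change to -0.43 for Igf1 and -0.46 for Irs1. Usage turned to 0.017 at Irs1 site 2, -0.0025 at Socs2 site 1, 0.10 at Igfals site 1 and -0.013 at Igfals site 2 labelled Bmal1-/-, to 0.076 at nuclear Igf1 site 9 and to 0.35 at polysomal Irs1 site 1. Nuclear Insr was -0.036 with all genes of at least 1 count. Polysomal Igf1 was -0.077 with median-ratio size factors, -0.058 with all genes, -0.077 by DESeq2 and -0.017 without polysomal replicate 1. Polysomal usage of Irs1 site 1 was 0.11 with the replicate block and 0.082 without polysomal replicate 1. With the site counts of both lists as the gene total, nuclear usage turned to -1.17 at Irs1 site 3, -0.74 at Insr site 2, -1.04 at Ghr site 7 and -0.52 at Ghr site 2, and polysomal usage to 0.31 at Irs1 site 1.

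Counts over all genes moved most for rhythm. Those with a difference in rhythm labelled Bmal1-/- went from 617 to 236 (replicates 1 to 3), 200 (replicates 4 to 6), 324 (time as a factor) and 196 (all 4 series in 1 fit), and members from 2 to 1, 0, 0 and 0. Genes rhythmic in wild-type total RNA went from 2260 to 1342, 622, 1411 and 1024 in the same order, and members from 2 to 4, 1 and 1 in the first 3. Nuclear rhythm went from 669 to 174, 237 and 419. Polysomal rhythm went from 845 to 2107 (all genes), 1506 (replicate block), 115 (replicates 1 to 3), 346 (factor) and 2527 (all 4 series), and members from 2 to 1 (median-ratio), 5 (replicate block), 0 (replicates 1 to 3), 1 (factor) and 1 (without polysomal replicate 1). Rhythm labelled Bmal1-/- went from 1 to 21 (all genes), 0 (replicate block, either set of replicates, or without Xist libraries), 3 (factor) and 7 (all 4 series). Differences in rhythm went from 0 to 5 (all genes) and 1 (replicate block) in nuclear RNA, and from 0 to 424 (all genes), 2 (replicates 4 to 6), 7 (all 4 series) and 7 (without polysomal replicate 1) in polysomal RNA. Members with a nuclear level change went from 5 to 8 with the replicate block, which added Igfbp1 (-0.66, adjusted p 9.97e-09), Irs2 (-0.32, adjusted p 0.00132) and Socs2 (-0.22, adjusted p 0.0188). Sites with changed usage labelled Bmal1-/- went from 1220 to 1990 (replicate block) and 762 (replicates 1 to 3), and member sites from 3 to 1 (replicates 1 to 3) 1 (genes of at least 200 counts) and 1 (both lists). With genes of at least 200 counts, which tests fewer genes, nuclear sites went from 9430 to 3805, member sites from 19 to 9, and polysomal sites from 8956 to 3880. Sites with rhythmic usage went from 47 to 97 (replicate block), 7 (replicates 1 to 3) and 3 (replicates 4 to 6).

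Libraries of the same number and time shared deviations between nuclear and total RNA (mean r 0.36, 34 of 36 pairs over 0.1), not between polysomal and total RNA (-0.14, 1 of 36) and in 17 of 36 pairs between the series labelled Bmal1-/- and wild type (0.08). Of these libraries 32, 0 and 13 of 36 correlated best with their own number. The numbers are not stated to mark a shared animal or day. Depth limits Socs2, Irs1, Irs2 and Insr most, for which nuclear site counts averaged 37.2 to 82.1 per library.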
